A study of Mus musculus with 6 samples.

Results

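The 10 guanylate-binding protein genes Gbp2 to Gbp11 were followed in immature mouse thymocytes in which GATA sites of an enhancer of Myc were mutated. They were taken as the rows of the deposited table whose Ensembl identifiers carry these symbols in GENCODE M21, 10 of 21135 genes. The set was chosen by measured values of these same libraries, so the contrast of genotypes is given for its members as a description. A threshold that a member passes or misses below, or an interval, is part of that description and no independent support. The libraries compared were 3 from mice homozygous for mutations of GATA sites 1 and 2 of NMe, called GATA-site mutant below, against 3 from mice wild type for NMe. NMe is a distal enhancer of Myc that Notch binds. All 6 were DN3 thymocytes, a stage before CD4 and CD8 appear on the cell, on the C57BL/6 strain. The labels give no age, no sorting gate and no statement that the libraries came from separate animals, so every error and p-value reflects only how these libraries vary, which may be technical.

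Guanylate-binding proteins are large GTPases that interferon gamma induces strongly, in part through IRF1. They gather on vacuoles that hold intracellular microbes and on bacterial surfaces, and help to open vacuoles and to start inflammasome signalling. In the mouse the genes lie in a cluster on chromosome 3 and another on chromosome 5, and several chromosome 3 products (Gbp2 and Gbp5 among them) carry a lipid tail that anchors them to membranes.

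Values are reads per gene divided by 1 size factor per library, written here as normalised reads. The libraries held 38.6 to 51.3 M reads. Myc itself averaged 5446 ± 783 normalised reads in the mutant and 19153 ± 1079 in wild type (SD, n = 3 each), a log2 difference of -1.82 ± 0.12 (SE). All 13 markers of DN3 cells were listed, and their sum was 496363 to 590619 in the mutant and 380506 to 423706 in wild type. Of these markers 6 were higher, among them Il2ra (log2 0.85, limma adjusted p = 0.00036) and Dtx1 (log2 1.91, limma adjusted p = 2.3e-05), and 1 was lower, Rag1 (log2 -0.58, limma adjusted p = 0.0035). Their part in the Gbp levels was not tested. Cd4 reached at most 39.7 normalised reads in the mutant and 85.4 in wild type, and Cd8a 32.6 and 55.4. Wild type 2 stood apart in globin transcripts, with an erythroid marker sum of 7921 against at most 43.5 in any other library. In bulk RNA, fewer cells of a type and less RNA per cell cannot be told apart.

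The promoters of the chromosome 3 genes hold short motifs of the interferon response, which are shown because the members next to each other differ in them. RefSeq windows of 300 bases, 250 before to 50 after the start, matched 4 of the 10 members. They are given 5′ to 3′ on the + strand of GRCm38.p6, with capitals marking the GAS motif TTCNNNGAA, a STAT-type site, and the ISRE motif GAAANNGAAA, an IRF-type site, searched on both strands. Gbp5 is at chr3:142496684-142496983, Gbp7 at chr3:142530086-142530385, Gbp3 at chr3:142559794-142560093 and Gbp2 at chr3:142620413-142620712.
Gbp5: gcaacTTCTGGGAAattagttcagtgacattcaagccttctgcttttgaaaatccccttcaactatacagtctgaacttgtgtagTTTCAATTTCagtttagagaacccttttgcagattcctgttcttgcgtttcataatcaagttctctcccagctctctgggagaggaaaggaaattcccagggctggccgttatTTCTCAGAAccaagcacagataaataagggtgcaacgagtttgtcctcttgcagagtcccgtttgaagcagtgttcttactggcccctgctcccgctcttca
Gbp7: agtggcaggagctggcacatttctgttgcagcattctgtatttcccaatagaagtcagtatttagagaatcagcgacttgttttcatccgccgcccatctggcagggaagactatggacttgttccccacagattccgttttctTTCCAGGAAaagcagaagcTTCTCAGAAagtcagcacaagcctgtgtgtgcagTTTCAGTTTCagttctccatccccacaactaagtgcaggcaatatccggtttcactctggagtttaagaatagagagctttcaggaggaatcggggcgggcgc
Gbp3: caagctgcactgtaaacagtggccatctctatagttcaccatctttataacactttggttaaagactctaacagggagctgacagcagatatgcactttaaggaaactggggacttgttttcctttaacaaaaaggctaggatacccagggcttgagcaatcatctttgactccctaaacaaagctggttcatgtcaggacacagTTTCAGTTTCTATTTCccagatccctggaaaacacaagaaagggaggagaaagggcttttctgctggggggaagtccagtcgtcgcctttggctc
Gbp2: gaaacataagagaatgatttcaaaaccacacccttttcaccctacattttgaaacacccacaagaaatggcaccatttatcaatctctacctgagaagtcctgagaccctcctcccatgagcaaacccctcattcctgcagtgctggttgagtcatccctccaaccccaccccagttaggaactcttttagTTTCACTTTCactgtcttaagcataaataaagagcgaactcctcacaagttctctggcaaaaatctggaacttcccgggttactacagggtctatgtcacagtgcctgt

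An ISRE match was present in a window of each of the 4 members. Of all genes, 3.44% of the 32851 windows and 3.99% of the 27025 genes held one. GAS matches were found in 2 of the members, Gbp5 and Gbp7, each with 2. That motif was held by 8.30% of all windows and 9.55% of all genes with a window. Windows with both motifs made up 0.454% of all windows. In Gbp5 the GAS matches began at -245 and -52 and the ISRE match at -165 from the start. In Gbp7 the GAS matches began at -106 and -87 and the ISRE match at -53. Gbp3 had ISRE matches at -45 and -39 that overlap each other, and Gbp2 had 1 at -59. A second Gbp3 window, at chr3:142560106-142560405, held neither motif. The window of Gbp2b, a gene of this cluster that is no member, held 1 ISRE match and 0 GAS matches. The MYC-type E-box CACGTG was in 0 of the 5 windows of these 4 members and in 7.15% of all windows. A match is a description of letters and not of binding.

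Of the chromosome 3 genes, Gbp5 and Gbp7 were higher in the mutant, while Gbp3 and Gbp2 overlapped between genotypes. Gbp5 (chr3:142493978-142522344), known in mouse macrophages for promoting inflammasome assembly, had 1240, 1266 and 850 normalised reads in the mutant, against 404, 596 and 601 in wild type. That is 2.10-fold, with a log2 difference of 1.07 ± 0.21 (SE). Every mutant library lay above every wild-type library. Gbp7 (chr3:142530342-142550149), required in mouse for defence against intracellular bacteria, had 13182, 13566 and 10345 normalised reads in the mutant, against 6637, 7739 and 6756 in wild type, 1.76-fold and again without overlap. It carried most of the reads of this cluster.

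Gbp3 (chr3:142560026-142573209) had 3154, 2923 and 2567 normalised reads in the mutant, against 2134, 3559 and 3046 in wild type. The log2 difference was 0.01 ± 0.18, with a 95% interval of -0.38 to 0.40. The mutant values lay inside the wild-type range. Gbp2 (chr3:142620602-142638008), which coats pathogen vacuoles in mouse cells, had 3262, 3194 and 2348 normalised reads in the mutant, against 1688, 2193 and 2360 in wild type. Mutant 3 lay just below wild type 3, and the ratio of means was 1.41. Without mutant 3, Gbp2 passed the threshold described below, at a log2 difference of 0.65. On leaving out any other library Gbp2 did not pass, and without wild type 1 the difference was 0.35. Gbp2b, between Gbp3 and Gbp2 and no member, stayed at 12.7, 14.5 and 25.4 normalised reads in the mutant and 0, 7.64 and 1.78 in wild type, on 23 reads or fewer in each library. Its log2 difference of 2.62 ± 0.87 missed the threshold with limma (adjusted p = 0.061), and passed it without wild type 2. Without wild type 1 the difference was 1.86 and did not pass (limma adjusted p = 0.13).

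On chromosome 5 all 6 means were higher in the mutant, by very different amounts. Gbp8 (chr5:105014150-105139540) had 9328, 21019 and 5611 normalised reads in the mutant, against 2746, 2551 and 2330 in wild type. The lowest mutant library stood well above the highest wild-type library, and the mutant libraries differed widely among themselves. The ratio of means was 4.71, and 2.94 without mutant 2, with log2 differences of 2.02 ± 0.36 and 1.51. Gbp9 (chr5:105077630-105139539) had 23839, 22765 and 23717 normalised reads in the mutant, against 20595, 16414 and 15548 in wild type. Its mutant values were the most even of all members, with a coefficient of variation of 2.51%, and lay above wild type by 1.34-fold.

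Gbp4 (chr5:105115767-105139586) had 25641, 30556 and 21980 normalised reads in the mutant, against 15668, 16957 and 15517 in wild type, 1.62-fold without overlap. Gbp11 (chr5:105323042-105346472), annotated as a polymorphic pseudogene, had 7730, 6021 and 6465 normalised reads in the mutant, against 3897, 4000 and 3040 in wild type, 1.85-fold without overlap. Gbp10 (chr5:105215699-105239533) had 1714, 965 and 1422 normalised reads in the mutant, against 1186, 1047 and 833 in wild type. Its genotypes overlapped, because mutant 2 was below wild type 1 and wild type 2.

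Gbp6 (chr5:105270702-105293698), which with Gbp10 has been linked to defence against intracellular bacteria in mouse, was the most uneven member. It had 712, 7038 and 937 normalised reads in the mutant, against 497, 441 and 463 in wild type. All mutant libraries were above all wild-type libraries, but mutant 2 was 7.51 times the next mutant library. The coefficient of variation was 124% in the mutant and 6.07% in wild type. The ratio of means was 6.20, and 1.77 without mutant 2, with log2 differences of 1.84 ± 0.67 and 0.81.

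**Figure D1:**
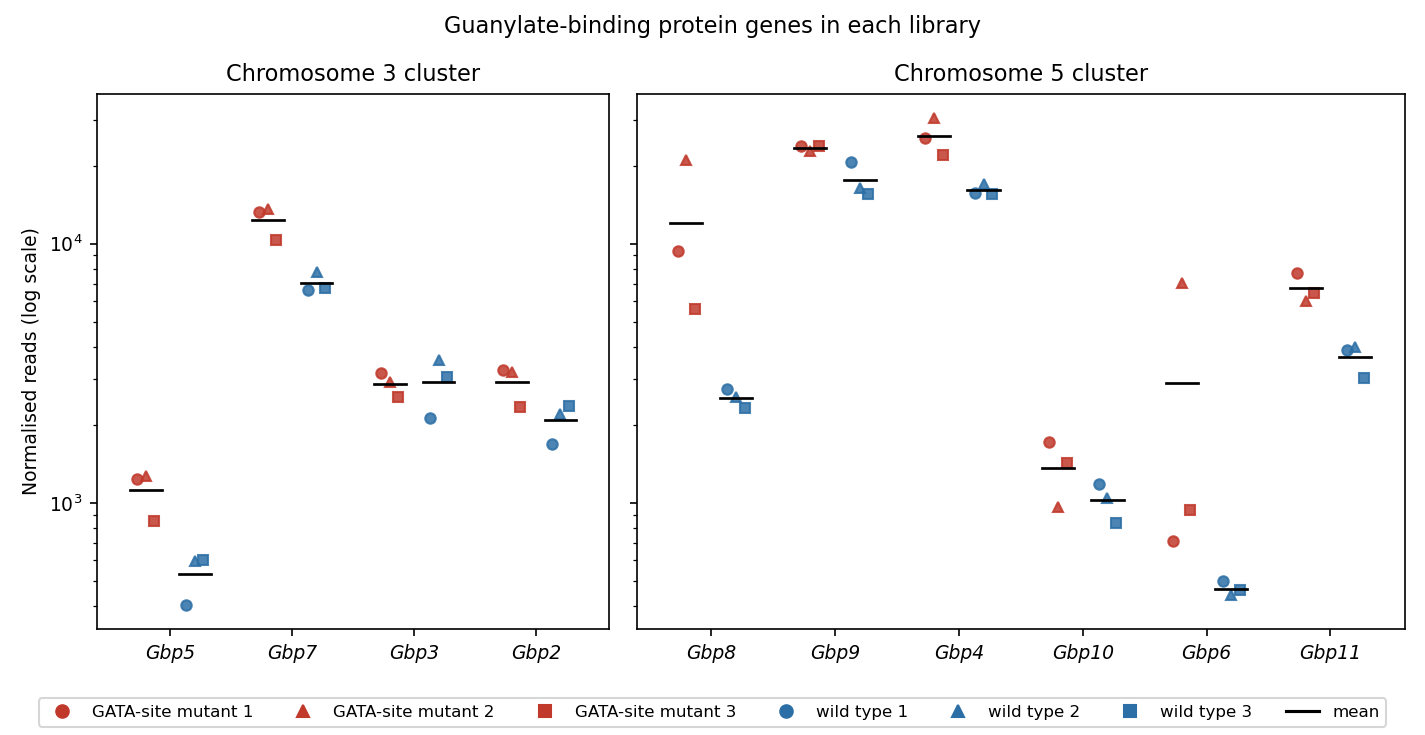
Normalised reads (log axis) of each member in the 3 GATA-site mutant libraries (red, left of each pair) and the 3 wild-type libraries (blue, right), with the mean of each as a bar, in chromosomal order. Mutant 2 is the triangle far above its group for Gbp6, at 7038, and for Gbp8, at 21019, while the Gbp3 points of both genotypes intermingle.

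Counts of members past a threshold describe the same contrast that chose them. The threshold was an adjusted p under 0.05 from limma, adjusted over the 17815 genes with a mean of at least 10, a filter that all 10 members passed. Of the 10 members, 6 were past it as higher in the mutant and 0 as lower, and edgeR, DESeq2 and an unadjusted limma p under 0.05 also gave 0 lower. Among all tested genes, 18.8% were past it, 7.94% as higher and 10.9% as lower. With libraries rescaled to equal totals, the calls over all genes divided into 1828 higher and 1648 lower, in place of 1414 and 1938. By position, 2 of 4 chromosome 3 members (Gbp5 and Gbp7) and 4 of 6 chromosome 5 members (Gbp8, Gbp9, Gbp4 and Gbp11) were past it. All mutant libraries were above all wild-type libraries for 7 of 10 members, the 6 above and Gbp6, and for 18.0% of all tested genes.

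Which members passed moved with single libraries. Gbp9 was no longer past the threshold when mutant 1, mutant 2, mutant 3, wild type 2 or wild type 3 was left out. Gbp6, not past it with all libraries, passed without mutant 1 and without mutant 2.

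The median log2 difference was 0.65 over the chromosome 3 members and 0.79 over the chromosome 5 members, beside 0.03 over all tested genes. Without the globin-rich wild type 2 these medians were 0.71 and 0.84. The chromosome 3 members summed to 20839, 20949 and 16109 normalised reads in the mutant, against 10863, 14088 and 12763 in wild type, a ratio of 1.54. The chromosome 5 members summed to 68965, 88364 and 60133 in the mutant, against 44590, 41409 and 37730 in wild type, a ratio of 1.76, and 1.57 without mutant 2. In each library the chromosome 5 sum divided by the chromosome 3 sum was 3.31, 4.22 and 3.73 in the mutant and 4.10, 2.94 and 2.96 in wild type. These ratios overlapped, and the spread between libraries was as wide as the gap between genotypes. All 10 members together took 2021, 2498 and 1791 of each M reads in the mutant, against 1234, 1215 and 1106 in wild type.

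**Figure D2:**
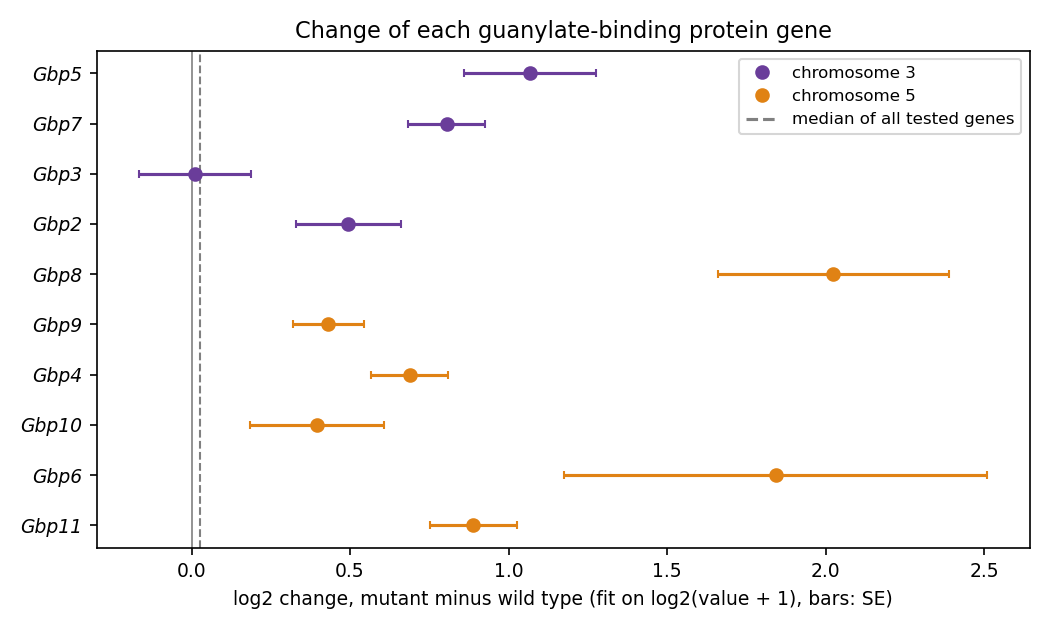
Fitted log2 difference of each member, mutant minus wild type, with its standard error as a bar, in purple for chromosome 3 and orange for chromosome 5; the dashed line is the median of all tested genes at 0.03. Gbp8, at 2.02, and Gbp6, at 1.84, lie farthest right, and Gbp3 sits at 0.01.

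Per kilobase of annotated exon, the members spanned a wide range of levels. In the mutant Gbp9 was highest at 4531 ± 114 normalised reads per kb, followed by Gbp8 at 3481 ± 2335 and Gbp4 at 3477 ± 574 (SD, n = 3), which did not differ beyond their spread. Gbp11 at 2503 ± 329 and Gbp7 at 2202 ± 313 came next and were also within their spread, then Gbp2 at 1166 ± 202 and Gbp3 at 883 ± 91. Gbp6 at 486 ± 603, Gbp10 at 353 ± 97 and Gbp5 at 169 ± 35 were lowest in the mutant. Without mutant 2, Gbp8 was at 2170 per kb and Gbp6 at 138, so Gbp8 lay below Gbp4 (3177) and Gbp6 below Gbp10 (405) and Gbp5 (157). In wild type the order was Gbp9 at 3387 ± 522, Gbp4 at 2141 ± 106, Gbp11 at 1354 ± 196, Gbp7 at 1255 ± 108, Gbp3 at 892 ± 221, Gbp2 at 827 ± 139, Gbp8 at 738 ± 60, Gbp10 at 264 ± 46, Gbp5 at 80.4 ± 16.9 and Gbp6 at 78.4 ± 4.8. The neighbours Gbp11 and Gbp7, Gbp3 and Gbp2, Gbp2 and Gbp8, and Gbp5 and Gbp6 did not differ beyond their spread there.

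The make-up of the Gbp reads moved with these levels. Gbp8 took 10.4%, 19.2% and 7.36% of all Gbp reads in the mutant and 4.95%, 4.60% and 4.61% in wild type. Gbp4 held an even share, 28.0% to 28.8% in the mutant and 28.3% to 30.7% in wild type. Gbp9, the largest share in every wild-type library except wild type 2, took 26.5%, 20.8% and 31.1% in the mutant and 37.1%, 29.6% and 30.8% in wild type.

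The order of libraries within a genotype differed between the clusters. Mutant 3 was the lowest mutant library for 4 of 4 chromosome 3 members and for 2 of 6 on chromosome 5. Wild type 1 was the lowest wild-type library for 4 of 4 chromosome 3 members, yet the highest for 4 of 6 on chromosome 5, where wild type 3 was lowest for 5 of 6. Among the members, mutant 2 was more than 2 times the next mutant library for Gbp6 and Gbp8 alone. Of 13382 genes with a mean of at least 50, mutant 2 was at least 4 times the next mutant library in 13 (0.0971%), among them Gbp6, and at least 2 times in 56 (0.418%), among them Gbp8. The same counts were 22 (0.164%) and 169 (1.26%) for mutant 3, and 4 (0.0299%) and 28 (0.209%) for mutant 1, with no member among them. Of the 14 neighbouring genes with that mean within 500 kb of the clusters, 0 were in either set of mutant 2. At shares this small, 14 genes are too few to tell whether the neighbours differ from other genes.

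Gbp6 and Gbp10 are the members whose reads are hardest to assign. Their coding sequences were 98.4% identical, and the 15 pairs within the chromosome 5 cluster ranged from 90.0% to 98.4% with a median of 90.8%. The 6 pairs within the chromosome 3 cluster ranged from 64.4% to 78.5%, with Gbp3 and Gbp7 the closest, and the 24 pairs between clusters from 63.4% to 75.4%. Of all 150-base windows of the annotated transcripts, 66.6% in Gbp10 and 59.1% in Gbp6 also occurred in another gene. The same share was 8.77% for Gbp7, all of it at the overlapping gene Gm43802, and under 0.1% for the other 7. At 50 bases, the shares were 84.1% for Gbp10, 70.7% for Gbp6, 19.2% for Gbp11 and 18.1% for Gbp8. The gene model Gm43302 runs across both genes and covers 46.3% of the exon bases of Gbp10 and 29.0% of those of Gbp6. It averaged 33.4 ± 14.3 normalised reads in the mutant and 31.1 ± 5.2 in wild type. How reads that fit several genes were counted is not given in the sources used here, and the libraries do not record strand.

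Summed, Gbp6 and Gbp10 had 2426, 8003 and 2359 normalised reads in the mutant, against 1683, 1488 and 1295 in wild type, a sum chosen after the values were seen. All mutant libraries were above all wild-type libraries, by 2.86-fold with mutant 2 and by 1.61-fold without it. In mutant 2, where Gbp6 was 8.54 times the mean of the other mutant libraries, Gbp10 was 0.616 times that mean. The part of read sharing in these opposite shifts was not tested.

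**Figure D3:**
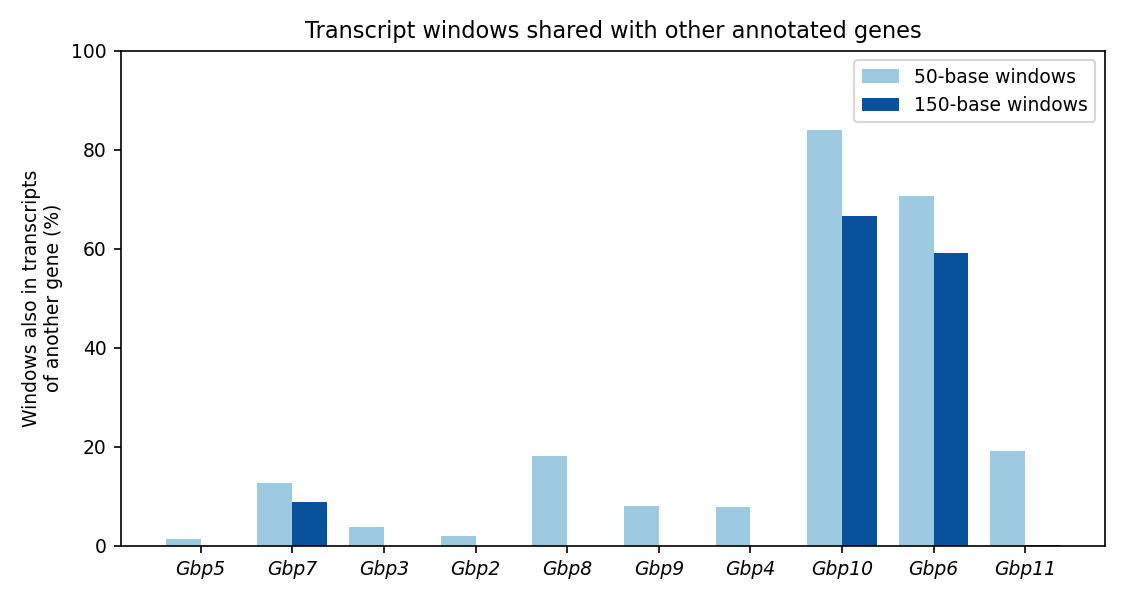
Share of each member's transcript windows, in percent, that also occur in transcripts of another annotated gene, for windows of 50 bases (light) and 150 bases (dark). At 150 bases Gbp10 reaches 66.6% and Gbp6 59.1%, Gbp7 has 8.77%, and the other members have bars at or near 0.

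Genes beside or inside the clusters that are no members were read in the same fit. Within 500 kb of the outermost members, 23 other genes were tested, of which 2 were higher and 1 lower, near the 7.94% and 10.9% of all tested genes. At equal library totals and with DESeq2, 5 passed. Beside the chromosome 3 cluster, the long noncoding RNA 4930519L02Rik was higher, at 652 ± 164 normalised reads in the mutant and 249 ± 63 in wild type (SD, n = 3 each; log2 1.39 ± 0.24 SE, limma adjusted p = 0.0039). Kyat3, a kynurenine aminotransferase gene, fell to 507 ± 75 in the mutant, against 1068 ± 166 in wild type (log2 -1.07 ± 0.17, limma adjusted p = 0.0023). Beside the chromosome 5 cluster, Gm42141 was higher, at 203 ± 71 in the mutant and 84.5 ± 19.6 in wild type (limma adjusted p = 0.019). It was no longer past the threshold without mutant 3 or without wild type 2. The median log2 difference was 0.13 over 8 neighbours on chromosome 3 and 0.02 over 15 on chromosome 5. The first set includes Gbp2b, itself a guanylate-binding protein gene, and the second Gm43302, both inside the clusters. The coding genes just before each cluster, Abcg3 on chromosome 5 (log2 0.20 ± 0.12, limma adjusted p = 0.27) and Pdlim5 on chromosome 3 (log2 -0.19 ± 0.16, limma adjusted p = 0.44), did not pass.

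**Figure D4:**
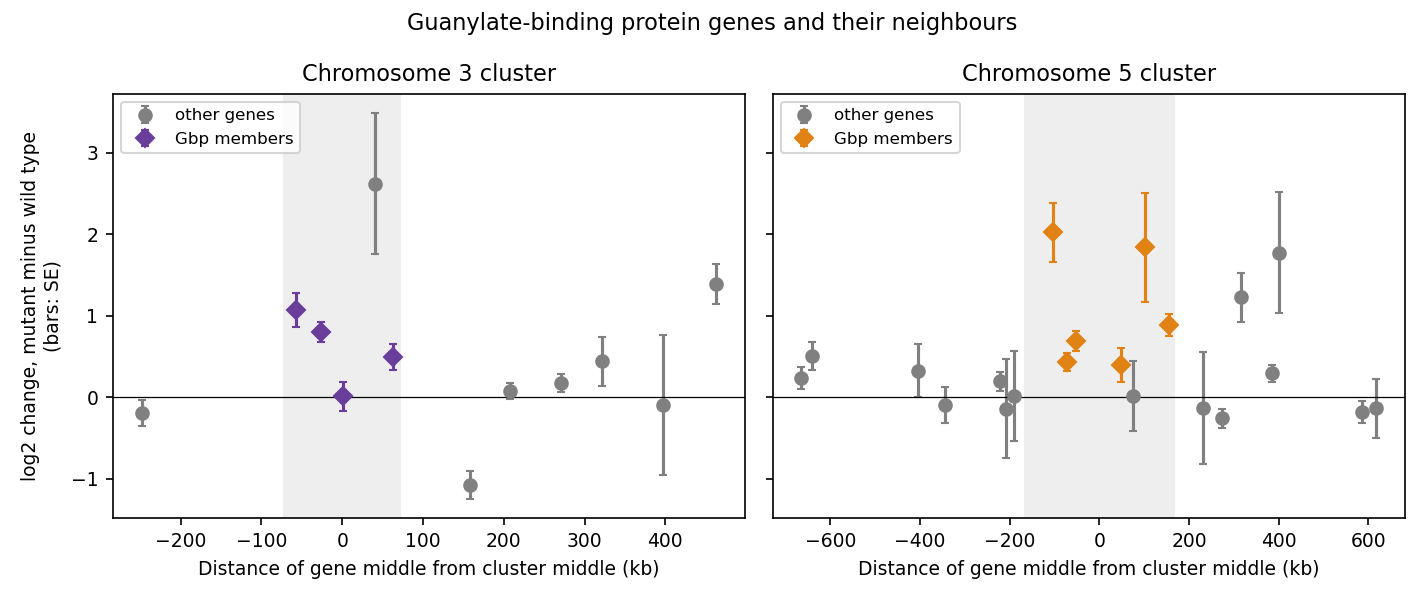
Fitted log2 difference, mutant minus wild type, with its standard error, of members (diamonds) and other tested genes (grey circles) by the distance of the gene's middle from the middle of each cluster in kb; shading spans the cluster. Members lie at or above 0.01, the median of other genes is 0.13 on chromosome 3 and 0.02 on chromosome 5, and Kyat3 lies lowest at -1.07. The highest grey circle, at 2.62, is Gbp2b, which is no member and lies inside the chromosome 3 cluster.

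The interferon pathway that controls these genes in other cells was then read in the same fit, over 7 lists with 115 names, 103 of which were listed and 101 tested. In all 36 were higher and 2 lower, beside 7.94% and 10.9% of all tested genes. The lists were drawn up with earlier results of these data known, so the counts describe them. The median log2 difference over the lists was 0.31, beside 0.03 over all tested genes. Each count of 0 given below for a list was also 0 with edgeR, with DESeq2 and at an unadjusted limma p under 0.05, except that 1 STAT or IRF factor was lower at the unadjusted p. The number called fell to 23, 25 and 24 without mutant 2, wild type 2 and wild type 3, against 38 with all libraries.

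Among ligands, receptors and kinases, 1 of 9 tested genes was higher and 0 lower. The count was 3 without wild type 1 and at equal library totals, and 2 without mutant 3 and with DESeq2. The gene past the threshold was Ifngr1, a chain of the interferon gamma receptor, at 49171 ± 8397 normalised reads in the mutant and 28477 ± 6604 in wild type (SD, n = 3 each; log2 0.80 ± 0.17 SE, limma adjusted p = 0.0096). Ifng, the cytokine itself, had 737, 673 and 1557 in the mutant, against 803, 226 and 198 in wild type. Its genotypes overlapped through wild type 1, and it did not pass (log2 1.47 ± 0.49, limma adjusted p = 0.062), though it did without wild type 1 (log2 2.11, limma adjusted p = 0.0055). The receptor kinases Jak2 (log2 0.39 ± 0.13, limma adjusted p = 0.057) and Jak1 (log2 0.26 ± 0.10, limma adjusted p = 0.10) did not pass. Jak2 passed without wild type 1 (limma adjusted p = 0.036), at equal library totals and with DESeq2, and Jak1 without mutant 3 (limma adjusted p = 0.044) and at equal library totals.

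Among STAT and IRF factors, 7 of 14 were higher and 0 lower. Irf9, the DNA-binding subunit of the complex that type I interferon activates, differed by 0.70 ± 0.13 on the log2 scale (limma adjusted p = 0.0057), and Irf1, an activator of Gbp genes in mouse, by 0.66 ± 0.13 (limma adjusted p = 0.0065). Irf7, an amplifier of type I interferon, differed by 0.98 ± 0.21 (limma adjusted p = 0.011). The list's count was 4 without mutant 2.

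Among inhibitors of the pathway, 3 of 10 were higher and 0 lower. Usp18, which blocks the type I interferon receptor, was at 3236 ± 461 in the mutant and 1255 ± 264 in wild type, 2.58-fold (limma adjusted p = 0.00071). Isg15, a ubiquitin-like modifier that stabilises USP18 in human cells, and Socs3, a feedback inhibitor of JAK kinases, differed by 0.99 ± 0.19 and 0.97 ± 0.18 on the log2 scale (limma adjusted p = 0.0068 and 0.0053). Socs1, the main brake on interferon gamma signalling, was at 0.65 ± 0.24 and did not pass (limma adjusted p = 0.085). It passed without mutant 3 (limma adjusted p = 0.032), with DESeq2 and with the replicate block described below, but without no other library. On leaving out 1 library it ranged from 0.32 to 0.87.

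Other interferon-inducible GTPases had 7 of 14 higher and 0 lower, with a median of 0.68. Iigp1, which attacks parasite vacuoles together with guanylate-binding proteins in mouse, had 2873, 2538 and 2623 normalised reads in the mutant, against 1187, 918 and 773 in wild type, 2.79-fold (limma adjusted p = 0.00034). Its groups were far apart. Irgm2, a regulator of that family, differed by 0.72 ± 0.15 (limma adjusted p = 0.0092). Tgtp1 differed by 0.90 ± 0.20 (limma adjusted p = 0.012), though its close copy Tgtp2 can share its reads, and Gm4070 by 1.72 ± 0.38 (limma adjusted p = 0.012). Without wild type 3 the count was 4.

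Among genes commonly induced along with the Gbp genes, 10 of 19 were higher and 1 lower. Trim30a differed by 1.06 ± 0.13 (limma adjusted p = 0.00067), Tap2, a peptide transporter chain, by 0.75 ± 0.11 (limma adjusted p = 0.0013), Parp9 by 0.60 ± 0.10 (limma adjusted p = 0.0025) and B2m, the light chain of MHC class I, by 0.66 ± 0.13 (limma adjusted p = 0.0061). The gene that fell was Bst2, which tethers viruses to the cell surface, at -0.58 (limma adjusted p = 0.047). It was named after its value was seen, its genotypes overlapped, and it was not past the threshold in edgeR, at equal library totals or without mutant 2, mutant 3, wild type 1, wild type 2 or wild type 3 (adjusted p 0.050 to 0.15). Without mutant 1 the count of higher genes was 6.

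Of the genes that act with guanylate-binding proteins in autophagy, prenylation and inflammasomes, 8 of 25 were higher and 0 lower. Casp4, mouse caspase-11, which senses bacterial lipopolysaccharide, had 293, 311 and 247 normalised reads in the mutant, against 108, 89.8 and 71.2 in wild type, 3.16-fold (limma adjusted p = 0.0012). The groups did not overlap. Naip5, a flagellin sensor, had 53.8, 81.5 and 105.9 normalised reads in the mutant, against 22.3, 23.9 and 16.9 in wild type (limma adjusted p = 0.0077). Aim2, a sensor of cytosolic DNA, differed by 0.53 ± 0.13 (limma adjusted p = 0.017) and Casp8 by 0.40 ± 0.10 (limma adjusted p = 0.020). Aim2 lost its call without mutant 3 or wild type 2, and Casp8 without mutant 2, wild type 2 or wild type 3. The count of this list was 4 without mutant 1, 3 without mutant 2, 5 without wild type 1, 2 without wild type 2 and 3 without wild type 3.

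The dynamin relatives, large GTPases of the same structural family, had 0 of 10 higher and 1 lower, with a median of -0.23. Opa1, which fuses the inner mitochondrial membrane, fell to 3479 ± 362 in the mutant, against 4677 ± 585 in wild type (log2 -0.42 ± 0.12, limma adjusted p = 0.040), and lost its call without mutant 1, mutant 2, mutant 3, wild type 2 or wild type 3 and at equal library totals. Atl3, Mfn2 and Mfn1 did not pass, at -0.27 ± 0.13, -0.20 ± 0.10 and -0.23 ± 0.13.

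**Figure D5:**
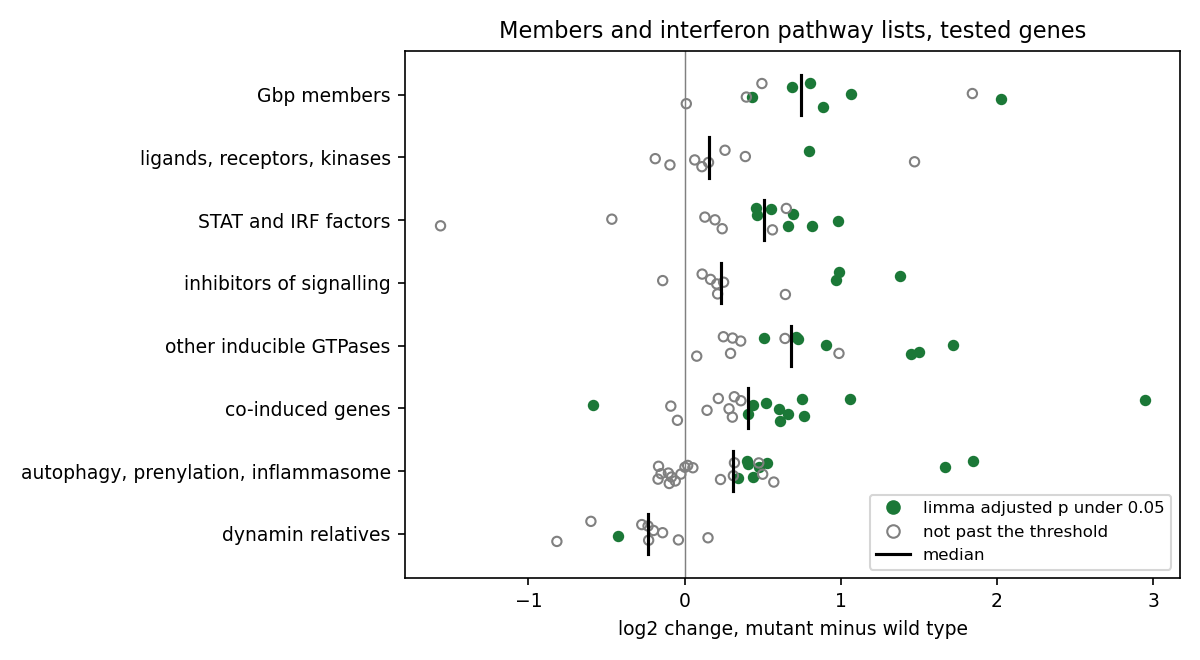
Fitted log2 difference, mutant minus wild type, of every tested gene in the members and in each of the 7 lists; filled green circles passed the limma threshold and the black bar is the median. The inducible GTPases have a median of 0.68 and the dynamin relatives one of -0.23, beside 0.75 for the members.

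Markers of other cells moved with genotype as well. Of the markers listed for gamma-delta T cells, Sox13 (log2 0.61, limma adjusted p = 0.0064), Maf (log2 1.39, limma adjusted p = 0.011) and Blk (log2 0.75, limma adjusted p = 0.0038) were higher. The natural killer list summed to 19941 to 31847 in the mutant and 14351 to 17572 in wild type, nearly all from Nkg7, which was higher, and Gzma. The defining macrophage marker Csf1r had at most 14.8 normalised reads in the mutant and 4.77 in wild type, and Adgre1 6.62 and 15.3. Dendritic markers summed to 506 to 626 in the mutant and 905 to 1266 in wild type, mostly from H2-Ab1, an MHC class II chain and the 1 gene of that list past the threshold (log2 -1.44, limma adjusted p = 0.00042). Xcr1 and Zbtb46 of the same list were at 0.73 and 0.70 and did not pass. The part of these cells in the Gbp levels was not tested.

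By likeness of pattern, the log2 profile of each of 13382 genes was correlated with the mean standardised profile of the 10 members over 6 libraries. The nearest 5 were E330034L11Rik at a Pearson r of 0.999, then Cyth2, Bicra, Rbm5 and Ikzf4, at 0.995 to 0.996. With 6 libraries and 13382 genes searched, a high r cannot by itself tell a related gene from an unrelated one. The members themselves ranged from 1.00 for Gbp7 to 0.243 for Gbp3. Each member is part of the profile, so its own r is partly built in, here and below. The 6 points share the division into 2 genotypes. With the mean of each genotype subtracted, the nearest 5 were Zdhhc12 at 0.998, then Gm11110, Rtn4rl1, Creg1 and Gm19243, and the members ranged from 0.992 for Gbp7 to -0.16 for Gbp9. For the chromosome 5 profile the nearest genes were Trbv12-2, Ptpre, Gm6545, Cd37 and Casp4, at 0.997 to 0.998, and for the chromosome 3 profile Gm44597, 4632415L05Rik, Rnpc3, Gm40466 and Zfp831, at 0.978 to 0.992. The 2 sets of 5 had 0 genes in common. With only 5 of 13382 genes taken for each profile, this cannot tell whether the clusters differ in the genes like them.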

How the data were processed

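RNA of 6 libraries of DN3 thymocytes was measured, 3 GATA-site mutant and 3 wild type. Per the labels' protocols, cDNA was made with the SMART-Seq v4 kit and libraries with Nextera XT, which do not record strand. The builds mm10 and GRCm38 and the tools DESeq2 1.20.0, featureCounts and STAR 2.5.3 are named in the submitters' processing notes. Each deposited value is a signal per gene, namely reads scaled by the authors with a size factor. This was settled from the values, since 100% of 126810 values came out as whole reads within 0.1 reads. Neither counting options nor the annotation release is given in the sources used here.

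Symbols came from GENCODE M21 (21100 of 21135 genes matched), and promoters from RefSeq, GRCm38.p6. Genotypes were compared with limma 3.58.1 in R 4.3.3 (mean-variance trend) on log2(value + 1), two-sided, over genes averaging 10 or more, with Benjamini-Hochberg adjustment at 0.05. Log2 differences carry standard errors and this scale understates the change of low genes, while ratios are of mean normalised reads. Adjusted p-values come from that fit, or from its rerun where a left-out library or other setting is named, except where edgeR is named. The fit was tested on simulated data. Alternatives were equal library totals, other pseudocounts and filters, a replicate block, each library left out, and edgeR 4.0.16 and DESeq2 1.42.0 on the recovered reads, which called 3283 and 4168 genes. Between libraries of 1 genotype, chi-square divided by its degrees of freedom was 26.4 to 55.2, so no library repeats another.

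The members and the lists were chosen with earlier results of these data known. Named genes are the members, Myc, up to 4 genes of smallest p per list, the genes within 500 kb of the clusters and the 5 genes most like the members' profile. Outside this rule, marker genes came from the lists of cell types, of which only some genes are named. Bst2, Capn11 and the zinc-finger genes of chromosome 4 are also outside it and were named after their values were seen. A few genes that this rule or a marker list holds are not reported here.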

Additional observations from a re-analysis of the deposited data

How the results depend on the processing

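Each genotype has 3 libraries, and a gene near the mean of 10 normalised reads is counted far less precisely than Gbp4 or Gbp9. Leaving out 1 library moved the calls over all genes from 3352 to between 1896 (without wild type 2) and 2793, those higher from 1414 to between 817 (without wild type 2) and 1182, with 860 without mutant 2, and those lower from 1938 to between 1079 (without wild type 2) and 1784. Pathway genes called moved from 38 to between 23 and 39, and those higher from 36 to between 23 (without mutant 2) and 38. The cause was not tested. Members called stayed between 5 and 7 under all 14 alternatives run, the median of the chromosome 3 members between 0.56 and 0.79 and that of the chromosome 5 members between 0.71 and 0.86. Neighbours called were 3, and 5 both at equal library totals and with DESeq2. Replicate numbers did not pair the samples (correlations of same-numbered deviations -0.022, -0.066 and -0.0097). With the number as a replicate block, 3066 genes, 7 members, 41 pathway genes and 4 neighbours were called. edgeR and the block added Gbp6, DESeq2 and equal totals added Gbp2, and DESeq2 gave no adjusted p for Gbp6. Over 139 values of the members, 122 kept their direction and side of the threshold. Signs turned only for genes not past it. Gbp3 gave -0.0032 with edgeR, -0.011 with DESeq2 and -0.20 to 0.17 on leaving out 1 library. Gm5870 gave -0.018 with a pseudocount of 5, -0.17 with edgeR, -0.18 with DESeq2 and -0.46 to 0.47 on leaving out 1 library. Gm32051 gave 0.46 with both count tests and -1.02 to 0.34 on leaving out 1 library. On leaving out 1 library, Gm2574 ranged from -1.08 to 0.67, Zfp951 from -0.23 to 0.11, Gm43856 from -0.67 to 0.43, Gm43302 from -0.26 to 0.39 and Rps15a-ps5 from -0.31 to 0.036.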

Other observations

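The other genes in which mutant 2 was at least 4 times the next mutant library included zinc-finger genes of chromosome 4 that were high in wild type 3 as well. They were named after their values were seen, and not all genes of the set had this pattern. Capn11 had 2.11, 715 and 35.3 normalised reads in the mutant, against 985, 1802 and 182 in wild type. Zfp990 had 11.6, 1535 and 7.72 normalised reads in the mutant, against 15.9, 18.1 and 1662 in wild type. Zfp979 had 5.28, 966 and 8.83 in the mutant, against 45.6, 32.5 and 1175 in wild type, and Zfp985 had 43.3, 266 and 37.5 in the mutant, against 55.1, 35.3 and 262 in wild type. In these 3 genes the high libraries were mutant 2 and wild type 3. Gbp6 had 463 normalised reads in wild type 3, inside the range of the other wild-type libraries.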
